A study of Caenorhabditis elegans with 154 samples.

Results

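A set of 10 genes of the *C. elegans* molt was followed in single first-stage larvae (L1s) that had hatched and arrested without food. They were *mlt-8* (W08F4.6), *mlt-9* (F09B12.1), *mlt-10* (C09E8.3), *mlt-11* (W01F3.3), *nas-36* (C26C6.3), *nas-37* (C17G1.6), *noah-1* (C34G6.6), *noah-2* (F52B11.3), *qua-1* (T05C12.10) and *fbn-1* (ZK783.1), chosen by sequence name out of 46744 such names in the tables of both strains. All 10 were present in both tables, each as 1 row, so there were no isoform rows to sum. The rule itself used no measured value.

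The L1s came from N2, the wild type, and from the *fog-2(q71)* mutant, in which XX animals make no sperm and breed only with males. Eggs of mixed embryonic age were recovered from fed adults by bleaching and left overnight in M9 buffer with PEG, at densities of 1, 5, 20 and 100 eggs in each μL. From these, 14, 22, 20 and 24 *fog-2* L1s (80 animals) and 13, 22, 16 and 23 N2 L1s (74 animals) each gave an RNA-Seq library. Values are tpm, a transcript abundance corrected for gene length and scaled to the same total in every animal. Whole animals were sequenced, so fewer cells that use a gene and less RNA per cell cannot be told apart.

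A larva replaces its cuticle at each molt. Epidermal cells first detach from the old cuticle and lay down a transient apical matrix. They then secrete the new cuticle beneath it, and secreted proteases and their inhibitors control how the old one comes away. An L1 held without food does not go on to its first molt. The late embryo builds its first cuticle with many of the same matrix genes before it hatches.

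In tpm, a table row at 1 or above was taken as detected. Between 7543 and 18346 of the 47639 rows were detected per animal, with a median of 11209.5. In *fog-2* the median was 13685.5 detected rows at 100 eggs/μL and 11945 at 1 egg/μL, and in N2 it was 10606 and 10139. The tables give no read counts, so a gene listed at 0 was below detection and was not shown to be absent. No 2 animals held identical values. A total of 12 animals stood apart from their group, with a median correlation to the others more than 3 scaled deviations below the rest. The digit that follows the density in the animals' names (1, 2 or 3) is not explained in the sources used here. It was spread unevenly over the densities, with digit 1 carried by 1 of the 13 N2 L1s at 1 egg/μL and by 8 of the 23 at 100 eggs/μL. Summed markers of intestine, muscle, neurons and epidermis were above 0 in all 8 groups. Of the 7 epidermal markers, 3 had a median of 0 in N2 at 1 and 100 eggs/μL and in *fog-2* at 20 eggs/μL. In *fog-2* at 5 and 100 eggs/μL 0 of them did. The median animal of every group held at least 1 of the 10 molting genes at 1 tpm or more.

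The molting genes were low in arrested L1s. Over all animals of both strains the medians ran from 0 tpm for *mlt-8*, *mlt-9*, *mlt-10*, *nas-36*, *nas-37* and *fbn-1* to 2.69 tpm for *qua-1*. The *qua-1* gene encodes a hedgehog-related secreted protein needed for molting, and it was detected in 111 animals, the highest number among the 10. The *nas-37* gene, for an astacin metalloprotease that helps to open the old cuticle, was detected in only 22. The number of the 10 genes detected per animal had a median of 1 in N2 and 2.5 in *fog-2* at 1 egg/μL. At 100 eggs/μL it was 3 in N2 and 5.5 in *fog-2*, with a range of 0 to 9 in N2 and 1 to 10 in *fog-2*.

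By the mean over the 4 densities, *qua-1* at 4.87 tpm and *noah-1* at 4.46 tpm led in *fog-2*, and *noah-1* at 8.86 tpm and *noah-2* at 6.49 tpm led in N2. The lowest were *mlt-10* and *nas-37*, at 0.554 and 0.471 tpm in *fog-2* and 0.335 and 0.319 tpm in N2. The means of neighbors in this order overlapped over the densities. For example, those of *noah-1* in N2 ran from 1.09 to 19.04 tpm and those of *noah-2* from 1.59 to 15.2 tpm. The strains' tables were made separately, so levels are set side by side here without a test between strains.

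**Figure D1:**
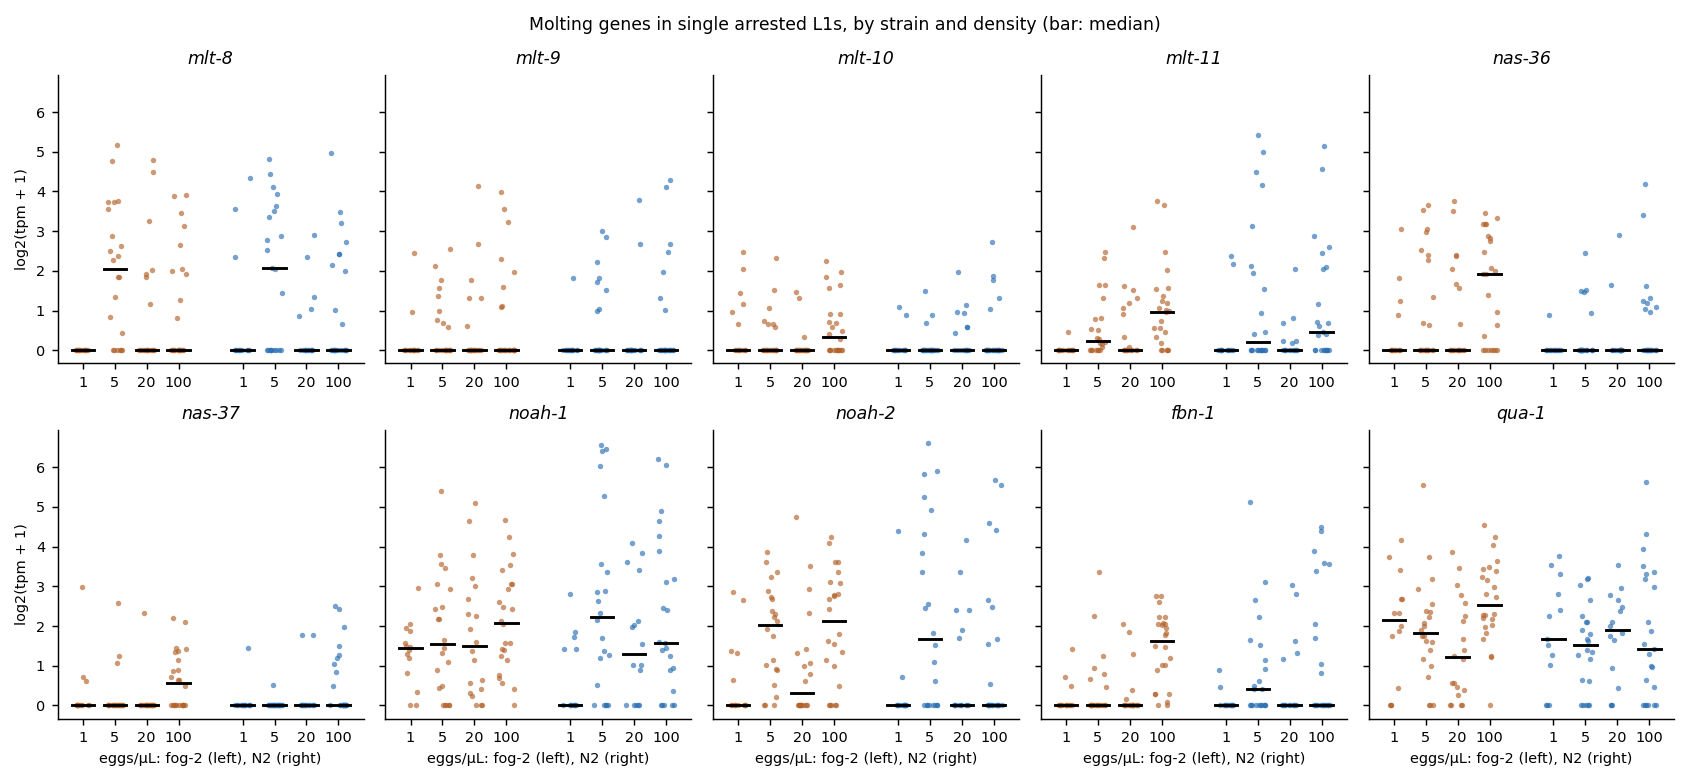
Level of each of the 10 molting genes in single L1s, as log2(tpm + 1), by density in *fog-2* (orange, left) and N2 (blue, right). Each point is 1 animal and the bar is the group median. Most medians sit at 0 while single animals reach up to 97.1 tpm, for *noah-2* in N2.

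The question of each comparison was whether the density of arrest changed these levels. Those at 100 and 1 egg/μL were compared by limma as log2(tpm + 1), adjusted for strain, over the 16457 genes that reached 1 tpm in 13 or more of the 74 animals at these densities. A gene was called at a Benjamini-Hochberg adjusted p under 0.05. By this test 5 of the 10 molting genes were higher at 100 eggs/μL (*fbn-1*, *noah-1*, *noah-2*, *mlt-11* and *nas-36*) and 0 were lower. Of all genes tested, 10.3% were called higher and 2.05% lower. The median log2 fold change was 0.78 over the 10 genes and 0.24 over all genes tested. Of the 10, 8 reached the minimum of 13 animals only with those at 100 eggs/μL, so the count is no support by itself. With no such filter it was again 5.

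The *fbn-1* gene encodes a fibrillin-like protein of the apical matrix. In *fog-2* its level was 0 to 1.67 tpm at 1 egg/μL, with a median of 0, and 0 to 5.81 tpm at 100 eggs/μL, with a median of 2.1. It was listed at 0 in 11 of 14 and in 2 of 24 of these animals. In N2 it was 0 to 0.84 tpm at 1 egg/μL and 0 to 21.5 tpm at 100 eggs/μL, both with a median of 0. Its log2 fold change was 1.20 ± 0.27 (SE, adjusted p = 0.0018), the largest of the 10, and it was detected in 26 of 47 animals at 100 eggs/μL against 1 of 27. The groups overlapped at 0 tpm.

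The zona pellucida domain proteins of *noah-1* and *noah-2* belong to the apical matrix that covers the epidermis of the embryo and of molting larvae. In *fog-2*, *noah-1* was 0 to 6.83 tpm at 1 egg/μL (median 1.72) and 0 to 24.3 tpm at 100 eggs/μL (median 3.26). In N2 it was 0 to 5.99 tpm (median 0) and 0 to 72.9 tpm (median 2). It was the only one of the 10 besides *qua-1* to be detected in more than 13 animals at 1 egg/μL, and its fold change was 1.14 ± 0.35 (SE, adjusted p = 0.022) on the log2 scale.

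For *noah-2*, *fog-2* L1s held 0 to 6.22 tpm at 1 egg/μL (median 0) and 0 to 17.9 tpm at 100 eggs/μL (median 3.43). In N2 the median was 0 at both densities, with 1 animal at 20 tpm at 1 egg/μL and a highest value of 50.3 tpm at 100 eggs/μL. The fold change of *noah-2* was 1.12 ± 0.36 on the log2 scale (SE, adjusted p = 0.029). The ranges of the 2 densities overlapped in both strains.

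The *mlt-11* gene encodes a large Kunitz-type protease inhibitor. It was listed at 0 in 13 of 14 *fog-2* L1s at 1 egg/μL and in 5 of 24 at 100 eggs/μL, where it reached 12.7 tpm with a median of 0.965. In N2 its highest value was 4.18 tpm at 1 egg/μL and 34.6 tpm at 100 eggs/μL. Its fold change was 0.92 ± 0.26 on the log2 scale (SE, adjusted p = 0.015).

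Of the astacin proteases that cut the old cuticle at the molt, *nas-36* was 0 to 7.32 tpm (median 0) in *fog-2* at 1 egg/μL and 0 to 9.95 tpm (median 2.79) at 100 eggs/μL. In N2 it was at most 0.85 tpm at 1 egg/μL and 17.2 tpm at 100 eggs/μL, with medians of 0, and the fold change over both strains was 0.88 ± 0.26 (SE, adjusted p = 0.019). Its partner *nas-37* was not called, at 0.39 (95% interval 0.03 to 0.76, adjusted p = 0.16). In *fog-2*, *nas-37* was detected in 1 of 14 L1s at 1 egg/μL and in 7 of 24 at 100 eggs/μL.

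The other genes were not called over both strains. The *mlt-8*, *mlt-9* and *mlt-10* genes are named for the failure to shed the cuticle after their knockdown. Their log2 fold changes were 0.68 (95% interval 0.06 to 1.30), 0.59 (0.07 to 1.11) and 0.09 (−0.27 to 0.46). That of *qua-1* was 0.34 (−0.33 to 1.01). Under quantile normalization the value of *mlt-10* turned to −0.055 and that of *qua-1* to −0.063. The intervals of *mlt-8*, *mlt-9* and *qua-1* reach beyond the values of *nas-36* and *mlt-11*, which were called.

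**Figure D2:**
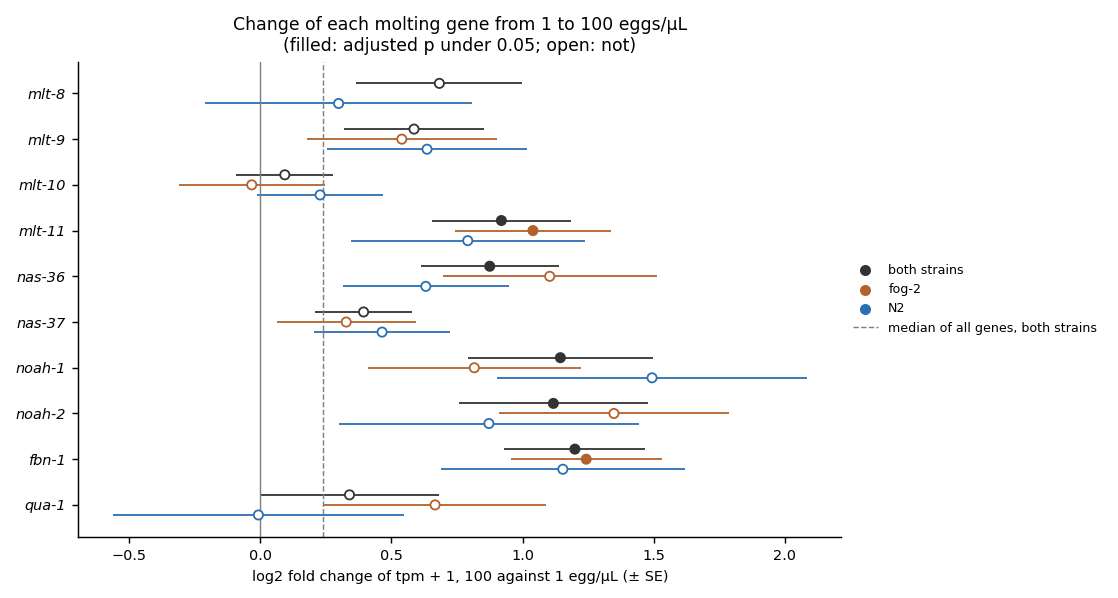
Log2 fold change of tpm + 1 of each molting gene at 100 against 1 egg/μL, with its SE, over both strains (black) and in *fog-2* and N2 alone. Filled symbols passed an adjusted p of 0.05, as 5 did over both strains, and the dashed line is the median of all genes, 0.24. No point is drawn for *mlt-8* in *fog-2*, which was listed at 0 in every animal at 1 egg/μL.

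In *fog-2* alone, 2 of the 10 genes were higher at 100 eggs/μL, *fbn-1* by 1.24 ± 0.29 (SE, adjusted p = 0.0064) and *mlt-11* by 1.04 ± 0.30 (adjusted p = 0.026) on the log2 scale in limma. The background was 5.65% of genes called higher and 1.11% called lower. In N2 alone limma called 0 of the 10, against 0.079% of genes higher and 0.17% lower. At an unadjusted p under 0.05 there were 2 in N2, *noah-1* (1.49 ± 0.59) and *fbn-1* (1.15 ± 0.46), against 1785 of all 16457 genes. In *fog-2* there were 5 of the 10 at that p, against 3639 of all genes. The difference between the strains was tested as an interaction, which called 0% of genes and 0 of the 10, and 0 of the 10 had an unadjusted p under 0.05. The interval of that difference, N2 minus *fog-2*, was wide, for example −1.15 to 0.97 for *fbn-1* and −0.70 to 2.06 for *noah-1*.

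The calls at 100 against 1 egg/μL moved with the number of detected rows. With that number as a covariate limma called 0 of the 10 genes, with 4 of them at an unadjusted p under 0.05. The *fbn-1* gene then had a log2 fold change of 0.74 (adjusted p = 0.13) and *noah-1* one of 0.87 (adjusted p = 0.23), and the median of all genes was −0.02. Under quantile normalization 0 were called as well (5 at an unadjusted p under 0.05), with *fbn-1* at 0.75 (adjusted p = 0.077) and a median of 0.03 over all genes. The split of all genes called was then 400 higher and 391 lower. With detected rows as a covariate it was 159 and 286, and with neither it was 1700 and 338. The share of all genes at an unadjusted p under 0.05 is not given for these 2 alternatives, so the 4 and 5 have no background here. Without the 12 animals that stood apart 4 of the 10 were called, and *noah-2* was not (1.08, adjusted p = 0.068). With strain and name digit as a replicate block 2 were called, *fbn-1* (1.01, adjusted p = 0.0056) and *mlt-11* (0.84, adjusted p = 0.024).

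Genes of hatching and of the early embryo were called in the same direction. The *hch-1* gene, for the astacin protease that dissolves the eggshell at hatching, was 1.51 ± 0.35 higher at 100 eggs/μL on the log2 scale (SE, adjusted p = 0.0026). Of 10 oocyte and early embryo markers 8 were tested and 5 were higher, against 10.3% of all genes, led by *pos-1* at 1.68 ± 0.39 (adjusted p = 0.0026), *spn-4* at 1.43 ± 0.35 and *oma-2* at 1.25 ± 0.31. In *fog-2* alone 4 were called, against 5.65% of all genes higher. In N2 alone limma called 0, against 0.079% of all genes higher, with 0 at an unadjusted p under 0.05. The median of these 8 markers on the log2 scale was 1.54 for *fog-2* and 0.34 for N2. The interaction test of the strain difference called 0 of the 8. At an unadjusted p under 0.05 it found 4, against 1113 of all 16457 genes. Their median difference, N2 minus *fog-2*, was −1.14. Like most of the 10 molting genes, *hch-1* (6 of 27 animals at 1 egg/μL and 30 of 47 at 100 eggs/μL), *pos-1* (6 and 29), *spn-4* (2 and 22) and *oma-2* (4 and 26) reached the minimum of 13 animals only with those at 100 eggs/μL. Of the 10 oocyte and early embryo markers, only *mex-3* (19 and 38) reached it on animals at 1 egg/μL alone. The count of 5 is therefore no support by itself. The summed level of these 10 markers in *fog-2* was 0 to 31.4 tpm at 1 egg/μL and 6.84 to 399 tpm at 100 eggs/μL, with medians of 15.0 and 47.8. In N2 it was 0 to 30.9 and 1.98 to 97.7 tpm, with medians of 6.49 and 12.8, and 2 markers were at 0 in every N2 animal at 1 egg/μL. Of 7 epidermal markers limma called 0. An unadjusted p under 0.05 was found for 3 (*che-14* at 0.71, *dpy-10* at 0.92 and *dpy-7* at 0.76, adjusted p = 0.070, 0.081 and 0.13), against 4248 of all 16457 genes. These 3 also passed the minimum only with animals at 100 eggs/μL, each with 6 of 27 at 1 egg/μL. Limma called 0 of 4 intestinal, 4 muscle, 4 neuronal and 3 pharyngeal markers, of which 3 muscle genes had an unadjusted p under 0.05 (*unc-54* at −0.44, *hlh-1* at 0.80 and *myo-3* at 0.39). The part of hatching and embryonic RNA in the calls of the molting genes was not tested.

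Steps between neighboring densities were fitted over all animals of both strains and 18896 genes. From 1 to 5 eggs/μL, 2 of the 10 genes rose and 0 fell, against 0.683% and 0.175% of genes. The first was *mlt-8*, at 1.56 ± 0.35 (SE, adjusted p = 0.0066) on the log2 scale. In *fog-2* it was listed at 0 in all 14 L1s at 1 egg/μL and held 0 to 35.3 tpm at 5 eggs/μL, with a median of 3.21. In N2 it was above 0 in 3 of 13 at 1 egg/μL and in 13 of 22 at 5 eggs/μL, with a median of 3.19. At 20 and 100 eggs/μL its median was 0 in both strains.

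The second was *noah-2*, at 1.53 ± 0.39 (SE, adjusted p = 0.025), whose median at 5 eggs/μL was 3.09 tpm in *fog-2* and 2.2 tpm in N2. Both calls were lost without the 8 N2 L1s of name digit 1 at 5 eggs/μL, with *mlt-8* at 1.24 (adjusted p = 0.090) and *noah-2* at 0.84 (adjusted p = 0.36), and also without the animals that stood apart. That left-out group was chosen after its values were seen. In the same step *hch-1* rose by 1.95 ± 0.42 (SE, adjusted p = 0.0033). For *hch-1* no fit without these animals is given here. Its median in N2 at 5 eggs/μL was 40.1 tpm in the 8 animals of digit 1, 0 in digit 2 and 2.5 tpm in digit 3. In *fog-2* its median was 0 at 1 egg/μL and 3.7 tpm at 5 eggs/μL.

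From 5 to 20 eggs/μL limma called 0 of the 10 genes, against 0.0212% of genes higher and 0.471% lower. At an unadjusted p under 0.05 there were 3 of the 10, against 1222 of all 18896 genes. All 3 had negative values (*mlt-8* −1.16, *noah-2* −1.06 and *mlt-11* −0.54, adjusted p = 0.087, 0.28 and 0.73). From 20 to 100 eggs/μL, *fbn-1* (0.90 ± 0.24, SE, adjusted p = 0.0059) and *nas-37* (0.45 ± 0.14, adjusted p = 0.028) rose and 0 fell, against 8.43% and 0.243% of genes. Both calls ended under quantile normalization, with detected rows as a covariate and with means by name digit. By their group medians, most of them 0 tpm, the genes differed in their course along the densities, which was not tested between genes. The medians of *mlt-8* peaked at 5 eggs/μL in both strains, while that of *fbn-1* in *fog-2* was 0 at 1, 5 and 20 eggs/μL and above 0 at 100 eggs/μL only.

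Other genes of the molt were read from lists of their roles. Of 7 further apical matrix genes, *sym-1* (1.22 ± 0.30, SE, adjusted p = 0.0044) and *let-4* (0.78 ± 0.24, adjusted p = 0.025), both for leucine-rich repeat proteins of that matrix, were higher at 100 than at 1 egg/μL, and 0 were lower. Over all genes 10.3% were higher and 2.05% lower, and this is the background of each list. Both passed the minimum of 13 animals only with those at 100 eggs/μL, *sym-1* with 1 of 27 at 1 egg/μL and *let-4* with 3, as did *nas-38* and *doxa-1*, named next, with 0 and 3. The zona pellucida domain gene *let-653* was not called (0.90, adjusted p = 0.073). Of 8 further proteases and inhibitors 2 were higher, *hch-1* and the astacin *nas-38* (0.88 ± 0.30, adjusted p = 0.040), and 0 were lower, while the cathepsin *cpz-1* was at −0.80 (adjusted p = 0.15). The median of these 8 was 0.10, below the 0.24 of all genes.

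Of 5 genes of cuticle cross-linking, *doxa-1*, for a maturation factor of the dual oxidase, was higher (1.34 ± 0.32, SE, adjusted p = 0.0031) and 0 were lower. The dual oxidase itself, *bli-3*, was not called (0.64, adjusted p = 0.22). Among the patched-related genes 5 of 6 were tested, and *ptc-3* was lower (−0.81 ± 0.28, adjusted p = 0.040), with medians of 15.98 and 12.14 tpm at 1 and 100 eggs/μL in *fog-2* and of 10.8 and 6.5 tpm in N2.

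Of 9 genes that time or drive the molt 8 were tested and limma called 0, led by *bed-3* at 0.61 ± 0.26 (adjusted p = 0.12). The nuclear receptor gene *nhr-23*, which drives the molts and was named after its value was seen, was at 0.11 ± 0.28. Of 8 genes of kinases and endocytosis 0 were called either, led by *mlt-3* (0.70 ± 0.31, adjusted p = 0.13). At an unadjusted p under 0.05 there were 1 regulator, *bed-3*, and 2 of the latter, *mlt-3* and *nekl-3*, against 4248 of all 16457 genes.

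Within a strain and density, animals differed widely. In N2 at 100 eggs/μL the SD of log2(tpm + 1) was 1.99 for *noah-1*, 1.97 for *noah-2* and 0.788 for *mlt-10*. The 10 genes together summed to between 0 and 245 tpm in these 23 animals, with a median of 11.01. In N2 at 5 eggs/μL the sum ran from 0 to 247 tpm. Levels were therefore correlated between animals after each density was centered, in *fog-2* (n = 80) and N2 (n = 74) apart, with 90 relations tested by 100000 permutations within density.

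Of 45 pairs, 14 were positively correlated in *fog-2* and 19 in N2 at an adjusted p under 0.05 (permutation test), and 0 were negatively correlated. The share of pairs of other genes that would pass was not computed, so the counts of pairs have no background here. The same test without the animals that stood apart called 13 and 19. In both strains 11 pairs passed, which is 11 of the 14 and 11 of the 19. A block of 6 genes held most of them (*mlt-8*, *mlt-9*, *mlt-11*, *noah-1*, *noah-2* and *fbn-1*, grouped after their values were seen). Of its 15 pairs 12 passed in *fog-2* and 13 in N2, while of the other 30 pairs 2 and 6 did. Of the other genes, *qua-1* and *mlt-10* were in 0 of the called pairs in *fog-2* and in 3 in N2 (*qua-1* with *mlt-9* and with *fbn-1*, and *mlt-10* with *noah-2*).

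In N2 the pair with the highest rho was *noah-1* with *noah-2*, while *mlt-11* with *noah-2* was higher by r, with detected rows regressed out and with ranks taken within density. For *noah-1* with *noah-2*, Spearman's rho was 0.68 and Pearson's r 0.70 (permutation p = 1e-05 for each, the smallest that the permutations can give, adjusted p = 0.00011 and 9e-05). Without the 2 animals farthest from the median of *noah-1*, r was 0.71. Within N2 at 5 eggs/μL rho was 0.88, at 20 eggs/μL 0.45 and at 100 eggs/μL 0.62, while at 1 egg/μL, where *noah-1* was listed at 0 in 8 of 13 animals, it was −0.32. In *fog-2* the same pair had a rho of 0.42 and an r of 0.50 (permutation test, adjusted p = 0.00096 and 9e-05). Left without its 2 farthest animals, r was 0.45, and by density rho was 0.27, 0.01, 0.63 and 0.73 from 1 to 100 eggs/μL.

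The inhibitor gene *mlt-11* went with both. Its rho with *noah-2* was 0.67 in N2 (r = 0.77, permutation test, adjusted p = 0.00011 and 9e-05) and 0.46 in *fog-2* (r = 0.52, adjusted p = 0.00083 and 9e-05). Without the 2 animals farthest from its median, r was 0.72 and 0.46. In *fog-2* the pair with the highest rho was *mlt-9* with *mlt-11*, at a rho of 0.64 and an r of 0.68 (permutation test, adjusted p = 0.00011 and 9e-05, and 0.60 without 2 animals). The proteases were linked to each other in *fog-2* only weakly, with a rho of 0.29 between *nas-36* and *nas-37* (r = 0.30, permutation test, adjusted p = 0.028 and 0.019, and 0.33 without 2 animals). With the number of detected rows regressed out it was 0.15 and no longer passed (permutation test, adjusted p = 0.31).

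**Figure D3:**
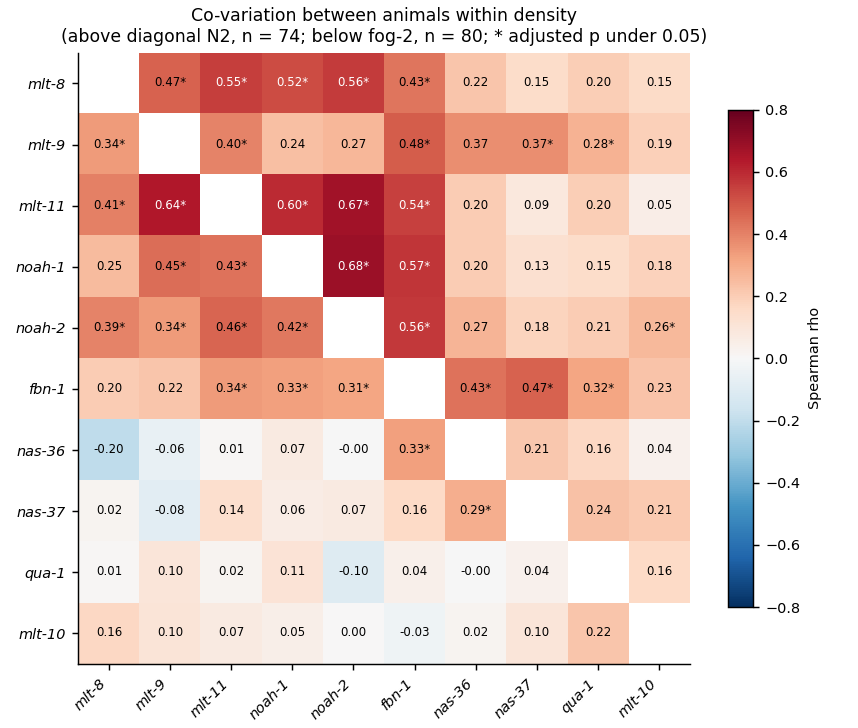
Spearman's rho between each pair of molting genes over animals, centered within density, for N2 above the diagonal (n = 74) and *fog-2* below it (n = 80). Asterisks mark the 19 and 14 pairs with an adjusted p under 0.05, most of them among the first 6 genes.

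In N2 the median rho with the other 9 genes was above that with all other genes tested for all 10, and in *fog-2* for 7 of the 10. The median rho of *fbn-1* with the other 9 was 0.47 in N2 and 0.22 in *fog-2*, and with all other genes tested it was 0.05 and 0.04. For *noah-2* these values were 0.27 and 0.31 with the other 9, and 0.03 and −0.01 with all others. The 3 exceptions in *fog-2* were *nas-36*, *nas-37* and *qua-1*, for example *nas-36* with 0.01 for the other 9 and 0.07 for all others. Single other genes spread widely around their median. In N2 only *mlt-8*, *mlt-11* and *fbn-1* had a median with the other 9 above the upper percentile of that spread. In *fog-2* only *mlt-11* and *noah-2* did, and all other medians lay inside the spread. The upper percentile was 0.37 for *noah-2* in N2 and 0.38 for *fbn-1* in *fog-2*, above their medians of 0.27 and 0.22. These are descriptions across genes, which are not independent.

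The number of detected rows was related to *nas-36* and *nas-37* in *fog-2* and to *mlt-9* and *nas-37* in N2. In *fog-2* its rho with *nas-37* was 0.44 (r = 0.47, permutation test, adjusted p = 0.0006 and 0.0008 over 20 relations, and r = 0.38 without 2 animals) and with *nas-36* 0.33 (r = 0.34, adjusted p = 0.027 and 0.018, and 0.26). With *noah-2* it was −0.16 in *fog-2* and 0.09 in N2 (r = −0.11 and 0.13, permutation test, adjusted p = 0.27 and 0.50 for rho). In N2 rho was 0.33 with *mlt-9* (r = 0.35, adjusted p = 0.027 and 0.028, and 0.33 without 2 animals) and 0.31 with *nas-37* (r = 0.46, permutation test, adjusted p = 0.027 and 0.0066, and 0.33). After the number of detected rows was regressed out within each density, 12 of the 14 pairs in *fog-2* and 15 of the 19 in N2 passed again. Those lost in *fog-2* were *nas-36* with *nas-37* and with *fbn-1*, and 2 others passed in their place. The rho of *noah-1* with *noah-2* was 0.67 in N2 and 0.46 in *fog-2*.

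The pairs in N2 moved with the name digit. At 5 eggs/μL the 8 N2 L1s of digit 1 held 5.22 to 93.6 tpm of *noah-1* (median 51.2), the 7 of digit 2 held 0 to 2.26 tpm (median 0) and the 7 of digit 3 held 0 to 10.8 tpm (median 3.42). Digit 1 lay wholly above digit 2 and overlapped digit 3. For *noah-2* the ranges were 4.9 to 97.1, 0 to 1.13 and 0 to 9.33 tpm. For *mlt-11* they were 0.33 to 42.1 and 0 to 1.92 tpm in digits 1 and 3, and it was listed at 0 in all 7 animals of digit 2. The numbers of detected rows overlapped, from 8638 to 12027 in digit 1, 8004 to 12315 in digit 2 and 9360 to 12428 in digit 3.

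At 100 eggs/μL the N2 L1s of digit 1 were again high, with 0.86 to 66.1 tpm of *noah-1* (median 16.1) against 0 to 4.29 tpm in digit 2 and 0 to 72.9 tpm in digit 3. The *fbn-1* gene had a median of 10.2 tpm there in digit 1 and was listed at 0 in all 8 animals of digit 2. At this density the N2 L1s of digit 1 also had more detected rows, 9371 to 16006 (median 12318.5). Digit 2 had 8661 to 12350 (median 11030.5) and digit 3 had 8705 to 11928 (median 10336). In *fog-2* at 5 eggs/μL the digits overlapped throughout, with *noah-1* medians of 4.39, 1.12 and 4.34 tpm.

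With name digit centered along with density, the rho of *noah-1* and *noah-2* in N2 was 0.45 (permutation test, adjusted p = 0.021), 2 of the 45 pairs were called in N2 and 7 in *fog-2*. Within single digits of N2 the rho of that pair was 0.79 in digit 1 (n = 21), −0.15 in digit 2 (n = 26) and 0.28 in digit 3 (n = 27). Without digit 1, 0 pairs were called in N2 and 4 in *fog-2*. In *fog-2* the rho of *noah-1* and *noah-2* was 0.58, 0.01 and 0.38 in digits 1, 2 and 3. That of *mlt-9* and *mlt-11* in *fog-2* stayed between 0.43 and 0.70 within each digit. For *mlt-11* and *noah-2* in N2, rho was 0.59, −0.27 and 0.10 in the 3 digits. With name digit centered too it was 0.29 and did not pass (permutation test, adjusted p = 0.16). Without only the 8 digit 1 animals of N2 at 5 eggs/μL, 17 pairs were called in N2. What the digit stands for, and its part in the co-variation, was not tested.

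**Figure D4:**
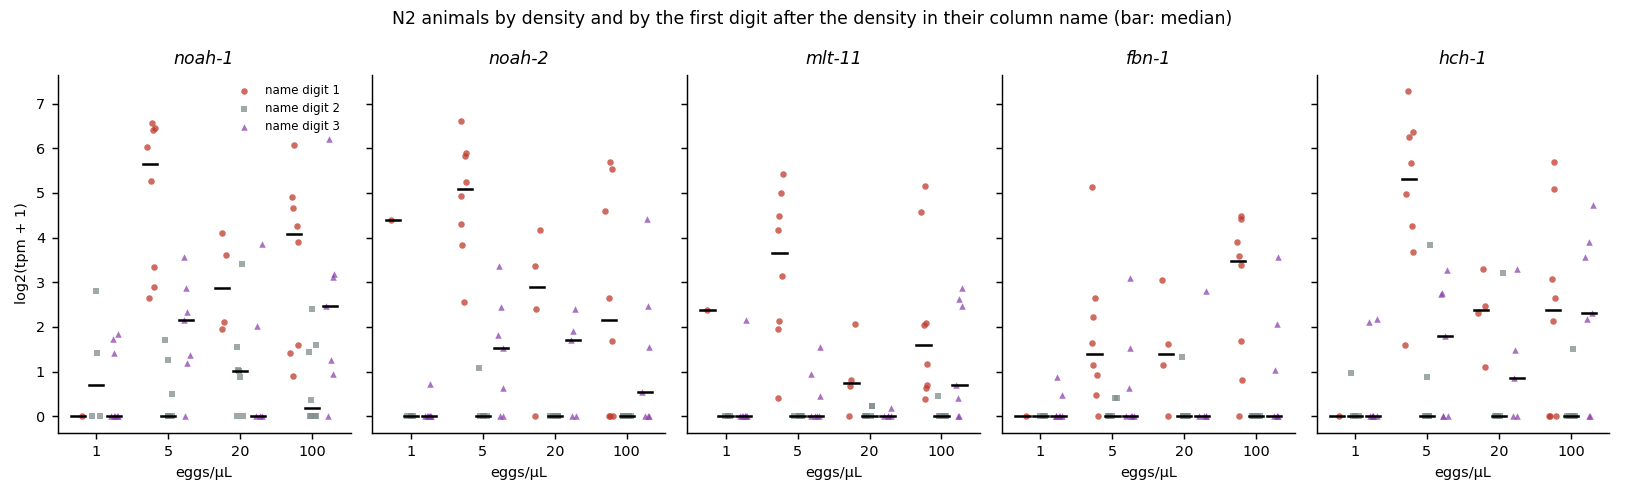
Levels of *noah-1*, *noah-2*, *mlt-11*, *fbn-1* and *hch-1* in N2 animals as log2(tpm + 1), by density and by the digit that follows the density in the animal's name. Each point is 1 animal and the bar is the median, which for *noah-1* at 5 eggs/μL was 51.2 tpm in digit 1, 0 in digit 2 and 3.42 tpm in digit 3.

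Animals with much *noah-1*, *noah-2* and *mlt-11* also held much *hch-1*. In N2 the rho of *hch-1* was 0.70 with *noah-2* (r = 0.73), 0.68 with *noah-1* (r = 0.77), 0.68 with *mlt-11* (r = 0.75) and 0.57 with *fbn-1* (r = 0.56). Each had a permutation p of 1e-05, the smallest possible, and an adjusted p of 4e-05 over 20 relations (3.3e-05 for r). Without the 2 animals farthest from the median of *hch-1*, r was 0.67, 0.73, 0.69 and 0.53. Within name digits rho was 0.49, 0.55, 0.37 and 0.36. The matrix gene *sym-1* was about as close in N2, with a rho of 0.72 with *noah-2*, 0.69 with *noah-1* and 0.64 with *mlt-11*. Relations of *hch-1* with *mlt-8* and *mlt-9* passed too, with a rho of 0.38 and 0.28 (permutation test, adjusted p = 0.007 and 0.043). Within name digits these 2 were 0.10 and 0.06.

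In *fog-2* the rho of *hch-1* with *noah-2* was 0.59 (r = 0.60, permutation test, adjusted p = 4e-05 and 3.3e-05, and r = 0.58 without 2 animals, rho 0.56 within digits). With *noah-1* it was 0.39 and with *mlt-11* 0.41 (r = 0.49 and 0.41, permutation test, adjusted p = 0.0021 and 0.0013 for rho). With *mlt-8*, *mlt-9* and *fbn-1* it was 0.37 each (permutation test, adjusted p = 0.0046, 0.0013 and 0.0025). The rho of *sym-1* in *fog-2* was 0.43 with *noah-2*, 0.32 with *noah-1* and 0.40 with *mlt-11*. Relations of *hch-1* with *nas-36*, *nas-37*, *qua-1* and *mlt-10* did not pass in either strain by rho, with adjusted p of 0.11 to 0.63. In N2 at 5 eggs/μL *hch-1* was 2.01 to 155 tpm in digit 1 (median 40.1), 0 to 13.2 tpm in digit 2 and 0 to 8.69 tpm in digit 3. At 1 egg/μL it was at most 3.8 tpm in *fog-2* and 3.55 tpm in N2. Time since hatching was not fixed in this design, and its values are not given in the sources used here.

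**Figure D5:**
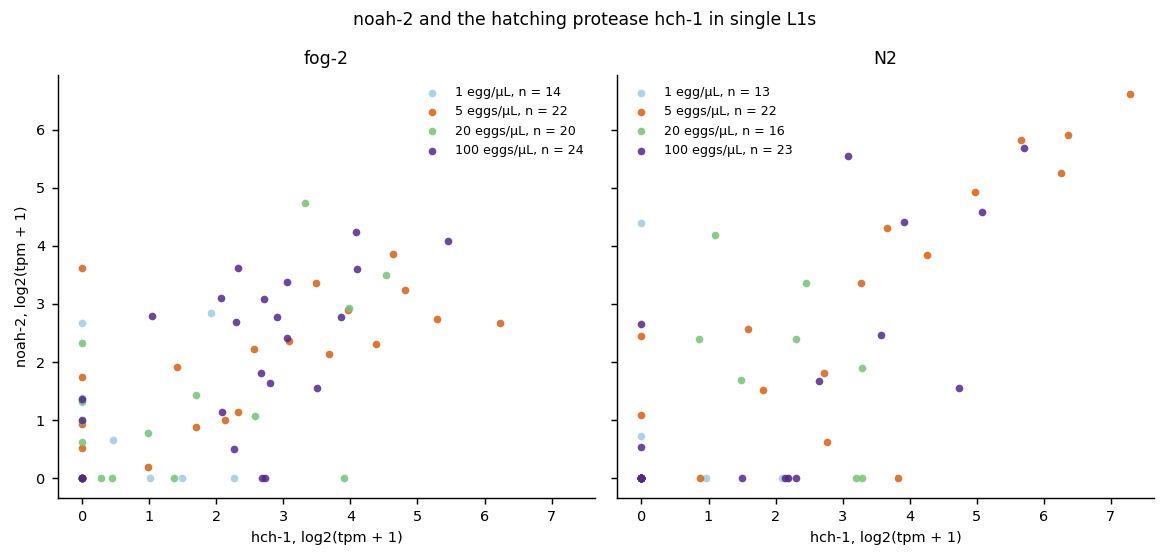
Level of *noah-2* against that of *hch-1* in single L1s, both as log2(tpm + 1), in *fog-2* (left, n = 80) and N2 (right, n = 74), colored by density. The highest values of both genes, 155 tpm of *hch-1* and 97.1 tpm of *noah-2*, are in N2 at 5 eggs/μL, and animals at 1 egg/μL hold at most 3.8 tpm of *hch-1*.

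Outside the 10 genes and among 6421 genes with a mean of at least 10 tpm in both strains, the 5 whose levels went most closely with the mean of the 10 were *dpy-17*, C35E7.5, *cav-1*, *sqt-3* and *dpy-14*. Likeness was the smaller rho of the 2 strains, over 80 and 74 animals. It was 0.54 for *dpy-17* (0.67 in N2), 0.53 for C35E7.5, 0.52 for *cav-1*, 0.52 for *sqt-3* (0.66 in N2) and 0.51 for *dpy-14* (0.73 in N2), against a median of −0.01 in *fog-2* and −0.02 in N2 over all genes compared. As they were picked for this likeness, no test is given. Of the 5, *dpy-17*, *sqt-3* and *dpy-14* encode cuticle collagens, and *cav-1* encodes a caveolin.

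In N2 at 5 eggs/μL *sqt-3* was 138 to 1301 tpm in digit 1 (median 608), 4.63 to 67.6 tpm in digit 2 and 27.7 to 799 tpm in digit 3. For *dpy-14* the medians were 490, 40.2 and 128 tpm. Digit 1 lay above digit 2 with no overlap for these 2 collagens. The other collagen, *dpy-17*, did overlap, at 25.5 to 396 tpm in digit 1 and 0 to 34.2 tpm in digit 2.

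Positions are those of the Ensembl gene models for WBcel235, the assembly also known as ce11. On chromosome II lay *mlt-10* (546705 to 552032, plus strand), *mlt-8* (569210 to 572110, minus strand) and *qua-1* (8198803 to 8204004, plus strand). Chromosome I held *noah-1* (5874416 to 5878958, minus strand) and *nas-36* (7527224 to 7531715, plus strand), and X held *nas-37* (9944844 to 9949063) and *mlt-9* (15101786 to 15107797), both on the minus strand. The plus strand carried *fbn-1* on III (7625386 to 7641078), *noah-2* on IV (14091254 to 14096626) and *mlt-11* on V (20667205 to 20678537). The neighbors *mlt-8* and *mlt-10* had a rho of 0.15 in N2 and 0.16 in *fog-2* (permutation test, adjusted p = 0.15 and 0.17). Pearson's r was 0.20 and 0.26 (permutation test, adjusted p = 0.15 and 0.035), or 0.20 and 0.21 without 2 animals, and the rho in *fog-2* with detected rows regressed out was 0.27 (permutation test, adjusted p = 0.047).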

How the data were processed

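Single L1s were profiled by Smart-Seq2 RNA-Seq. After removal of PCR duplicates and of rRNA, the authors quantified transcripts by RSEM and deposited tpm values, 1 table per strain. Bowtie and the ce11 build also stand in the notes of the submitters, and tool versions are not given in the sources used here. In all, 146 columns were matched to 1 labelled animal and 8 (*fog-2*, 1 egg/μL) to strain and density only, and 0 were left out. Isoform rows were summed to 46744 sequence names. The deposited tpm carry no depth. The read totals in the supplement of the study were not used here, and the number of rows at 1 tpm or more stands in their place.

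Values were analysed as log2(tpm + 1), which understates changes of low genes. Comparisons used limma 3.58.1 (R 4.3.3) with a mean-variance trend and Benjamini-Hochberg adjustment over all genes tested. Correlations used Spearman's rho and Pearson's r after centering each density, with two-sided permutation tests of 100000 resamples (Python 3.11.15, numpy 2.4.6, scipy 1.17.1). Both were tried on simulated data. Those for limma were shuffled for each gene on its own, so they held no name digit, shared culture or correlation between genes. The named genes were the 10 molting genes, up to 3 of each list with the smallest adjusted p at 100 against 1 egg/μL, the 5 most alike genes and, outside this rule, *nhr-23*. The genes, lists and tests were chosen with earlier results of these data known. Animals of 1 density may have shared a culture, and p-values then measure only the spread between these animals. Alternatives changed the pseudocount, filter, normalization, covariates, animals, isoform rows, variance model and threshold. Sequences were not used here.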

Additional observations from a re-analysis of the deposited data

How the results depend on the processing

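At 100 against 1 egg/μL over both strains, the 10 molting genes kept the direction of their fold change in 160 of 164 values under alternatives. That count is no support by itself, as many of the values could not turn. Changes of filter, threshold, variance model and isoform rows, and the permutation of animals, leave the fold change itself as it was. The 4 that turned were *qua-1* under quantile normalization (−0.063), with detected rows as a covariate (−0.056) and without name digit 1 (−0.44, against up to 0.89 without another digit), and *mlt-10* under quantile normalization (−0.055). The 5 molting genes called higher became 3 at a pseudocount of 5, 2 with a filter of 5 tpm (which tested 3 of the 10), 0 under quantile normalization, 0 with detected rows as a covariate, 0 with means by name digit, 1 at a threshold of 0.01 and 0 to 4 without 1 name digit (0 of 5 tested without digit 3). With the replicate block by strain and name digit they were 2, those called in *fog-2* went from 2 to 4 and those at 5 against 1 from 2 to 1. The digits are not known to pair animals.

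In *fog-2* alone the 2 became 1 at a pseudocount of 5, 0 with the 5 tpm filter, 0 under quantile normalization, 0 with detected rows as a covariate, 0 with means by name digit, 1 without the animals that stood apart, 1 at a threshold of 0.01 and 0 to 1 without 1 name digit. At 5 against 1 egg/μL the 2 became 1 at a pseudocount of 5, 1 under quantile normalization, 0 with means by name digit, 0 without the animals apart, 1 at a threshold of 0.01, 0 without the 8 N2 animals of name digit 1 (added after seeing the data) and 0 to 2 without 1 name digit. At 100 against 20 eggs/μL the 2 became 1 at a pseudocount of 5, 1 with the 5 tpm filter, 0 under quantile normalization, 0 with detected rows as a covariate, 0 with means by name digit, 1 without the animals apart, 1 at a threshold of 0.01 and 0 to 1 without 1 name digit. The causes were not tested.

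Over all genes, the 1700 higher and 338 lower became 674 higher with the 5 tpm filter, 400 higher under quantile normalization, 159 higher with detected rows as a covariate, 502 and 87 with means by name digit, 949 higher without the animals apart, 502 and 173 at a threshold of 0.01, and 180 to 756 higher and 57 to 262 lower without 1 name digit. The correlated pairs, 14 in *fog-2* and 19 in N2, became 7 and 2 with name digit centered too and 4 to 10 and 0 to 23 without 1 name digit. With ranks taken within each density, also added after seeing the data, they were 12 and 21. The highest isoform row alone gave the same levels, since each gene is 1 row. With medians at or near 0 tpm, a change in the share of animals above detection and a change in level cannot be told apart.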
